A study of Canis lupus familiaris with 9 samples.

Results

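Axon guidance ligands and receptors were examined in cultured dog cells as 70 genes of 15947 named genes on the array. The set holds the semaphorins of classes 3 to 7, the plexins and neuropilins, the ephrins and Eph receptors, the slits and robos, the netrins, the UNC5 receptors and DCC. Genes were taken by symbol from the platform's table, and where a gene had several probe sets, the brightest on average stands for it. By role, 36 of the genes encode ligands and 34 encode receptors. RNA was measured in 3 samples each of skin-derived neural precursors (SKN), brain-derived neural precursors (Brain) and fibroblasts (Fibroblast), with 1 Affymetrix array a sample. SKN cells were kept without serum, in DMEM/F12 with 20 ng/mL EGF, 40 ng/mL FGF and 2% B-27, first as floating spheres. Fibroblasts grew in DMEM/F12 with 10% fetal bovine serum. For Brain the labels name no medium, so culture type and medium cannot be told apart. None of the cells had been treated. The skin came from dogs that had routine surgery, and neither the dogs' ages nor the dog behind each culture is given. A p therefore measures the spread between these samples, which may be technical.

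Guidance cues steer growing axons and migrating cells by attraction or repulsion. Secreted class 3 semaphorins bind a neuropilin that pairs with a plexin A, whereas membrane-bound semaphorins bind plexins directly. Slits repel through robo receptors, netrin-1 attracts through DCC and repels through UNC5 receptors, and ephrins on 1 cell bind Eph receptor kinases on its neighbour, so that both cells can respond. The same cues act outside the nervous system, in mesenchyme, vessels and the glia of peripheral nerve.

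Values are log2 signals as deposited, so 1 unit is a 2-fold difference. Array medians lay between 4.715 and 4.786, and arrays of the same culture correlated across probe sets at 0.978 to 0.985. "Called" means an adjusted p under 0.05 in a limma fit over all 32205 probe sets, and differences carry the standard error (SE) of that fit, for 3 arrays against 3. Probe sets differ in brightness, so signals are compared between arrays for 1 gene and not between genes. On all 9 arrays, 16 of the 70 genes read below the lowest array median (DCC, at 2.84 or less, is an example), and such readings cannot tell a silent gene from a weak probe set.

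The labels were set against marker genes. Fibroblast markers were bright in Fibroblast and SKN: the collagen-binding proteoglycan LUM averaged 12.31 ± 0.04 (SD, n = 3) in SKN, 3.88 ± 2.25 in Brain and 12.26 ± 0.09 in Fibroblast. Of 10 measured neural precursor markers, 3 were lower (NES, PAX6 and DLX2) and 1 higher (EMX2) in SKN than in Brain. That is 40% of the list, beside 22.6% of all named genes. PAX6 averaged 4.47 in SKN, 6.08 in Brain and 5.81 in Fibroblast, and DLX2 averaged 5.05, 6.11 and 6.48 in the same order. Neither was called between Brain and Fibroblast. The intermediate filament NES averaged 6.67 ± 0.33 in SKN, 8.34 ± 0.39 in Brain and 6.65 ± 0.19 in Fibroblast, and the transcription factor EMX2 averaged 5.5 ± 0.27 in SKN, 3.51 ± 0.22 in Brain and 5.61 ± 0.41 in Fibroblast. SOX2, a transcription factor of neural precursors, averaged 5.25 ± 0.34 in SKN, 6.62 ± 1.11 in Brain (5.34 in Brain 3) and 5.17 ± 0.18 in Fibroblast and was not called. FABP7, a fatty acid carrier of radial glia, read low in each culture (2.25 in SKN, 2.24 in Brain and 2.53 in Fibroblast), as did the RNA-binding protein MSI1 (3.49, 3.48 and 3.66 in the same order). The list of 12 measured neural crest and Schwann cell markers was high in Brain, with array means of 5.34 to 5.44 in SKN, 8.38 to 8.77 in Brain and 5.32 to 6.27 in Fibroblast. Of 10 measured neuron markers, 4 were higher (STMN2, NEFL, NEFM and GAP43) and 1 lower (MAP2) in SKN than in Brain. STMN2 averaged 6.99 in SKN, 3.45 in Brain and 3.08 in Fibroblast, and MAP2 averaged 3.71, 9.13 and 3.84. Of 7 astrocyte markers, 3 were higher and 1 lower in SKN than in Brain. These are 50% and 57.1% of the 2 lists, beside 22.6% of all named genes. The oligodendrocyte lineage list of 9 markers averaged 5.10 to 5.19 in SKN, 6.70 to 7.01 in Brain and 4.84 to 5.67 in Fibroblast. Its members were mixed, with 5 lower and 1 (PDGFRA, 8.61 in SKN and 3.97 in Brain) higher in SKN than in Brain. These calls make up 66.7% of the list, beside 22.6% of all named genes. UGT8, CNP and ENPP6 averaged 10.66, 9.79 and 9.74 in Brain, whereas MBP and MAG averaged 3.50 and 4.12 there. The 12 endothelial markers averaged 4.58 to 4.84 in SKN, 4.31 to 4.45 in Brain and 4.68 to 4.75 in Fibroblast, but not all were dim. PECAM1 and VWF averaged 3.93 or less in each culture, whereas the VEGF receptor FLT1 averaged 7.26 ± 0.62 in SKN, 9.78 ± 0.77 in Brain and 8.51 ± 0.18 in Fibroblast. Of these 12, 4 were higher (PECAM1, ERG, EMCN and EGFL7) and 2 lower (FLT1 and KDR) in SKN than in Brain. That is 50% of the list, beside 22.6% of all named genes.

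Across the 3 comparisons, 37 of the 70 guidance genes were called at least once and 33 never. The share of all named genes called at least once was not counted, and the shares for each comparison are given below. Each culture lay apart from both others in some of these genes. All 3 Brain arrays lay above the other 6 arrays for 16 of the 70 genes (22.9%), a pattern found in 14.4% of all named genes, and below them for 12 (17.1%, against 14.2% of all named genes). SKN lay above the other 6 arrays for 8 genes, or 11.4% (EFNA4, EFNB1, EPHA2, SEMA4F, SLIT2, SLIT3, UNC5A and UNC5B), where 5.43% of named genes did, and below them for 5, or 7.14% (EFNB2, NTN1, PLXNA4, PLXNB3 and SEMA4B), where 4.62% did. Fibroblast lay above for 5 (7.14%, against 8.37% of named genes) and below for 8 (11.4%, against 5.42%).

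**Figure D1:**
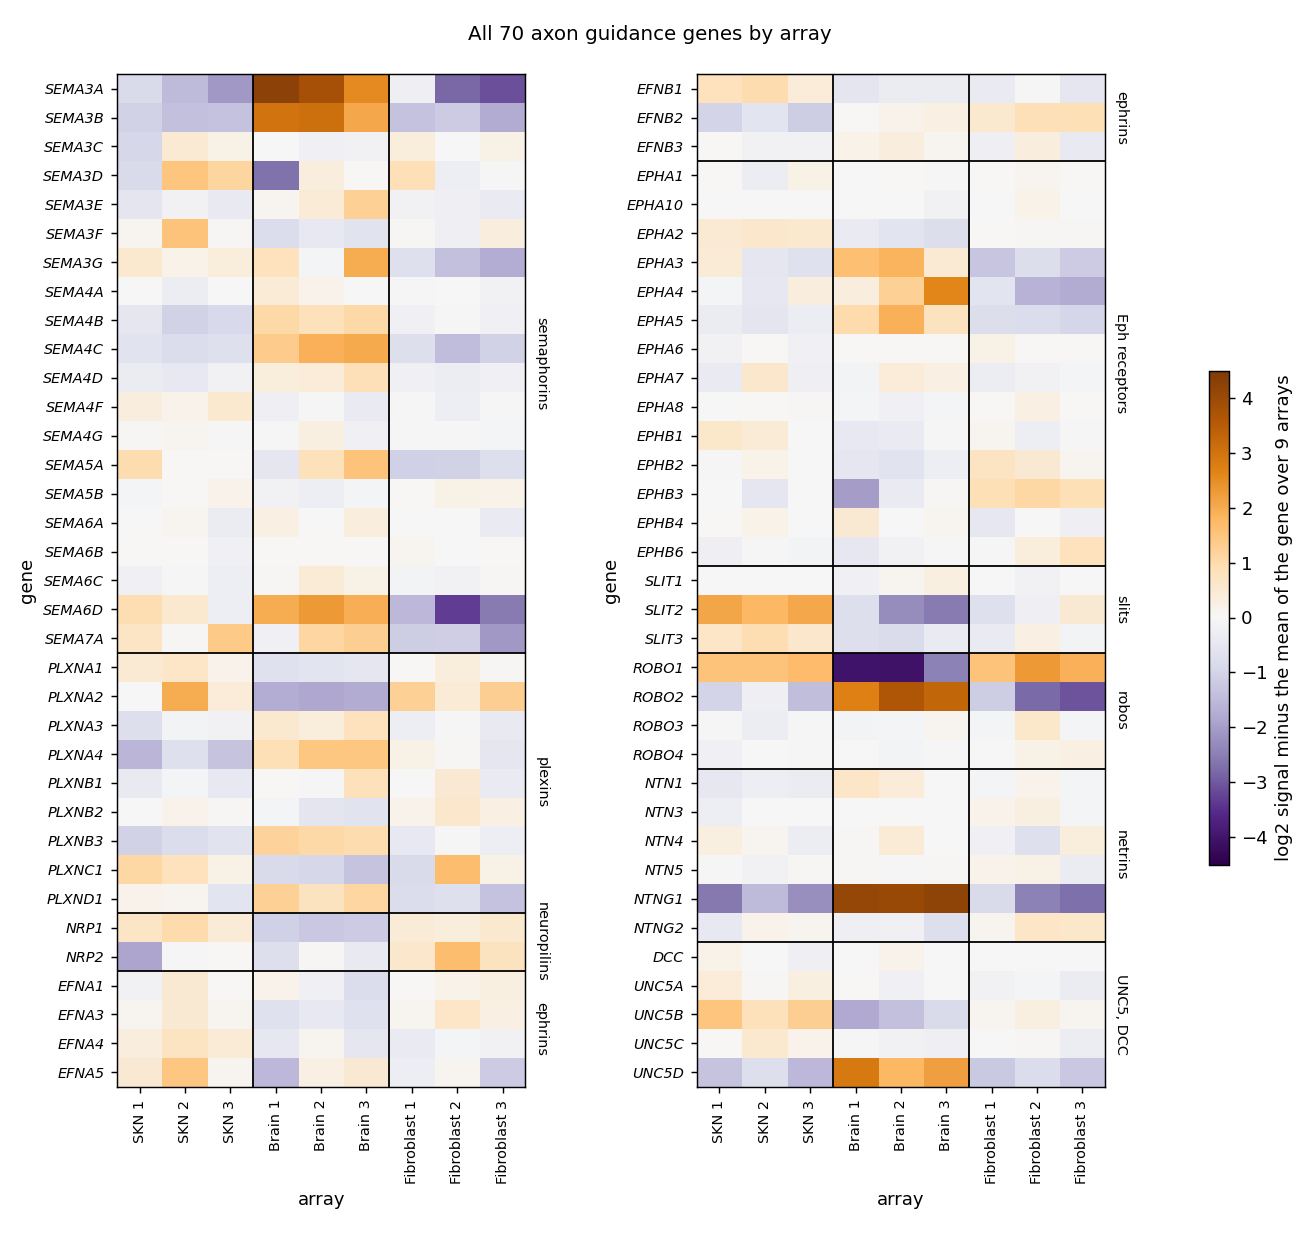
Log2 signal of each of the 70 guidance genes (rows, by family) on the 9 arrays (columns: SKN, Brain, Fibroblast), minus the gene's mean over the 9 arrays. The Brain columns carry the strongest colours, with SEMA3A, SEMA3B, NTNG1, ROBO2 and UNC5D above and ROBO1, PLXNA2 and UNC5B below the other cultures.

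Between SKN and Brain, 30 of the 70 genes were called (42.9%), 12 higher and 18 lower in SKN, where 22.6% of all named genes were called (10.9% higher and 11.7% lower). The median difference was -0.06 for the guidance genes and 0.01 for all named genes, and the median absolute difference was 0.62 against 0.24. Between Brain and Fibroblast, 32 were called (45.7%), 19 higher and 13 lower in Brain, where 27% of all named genes were called (13.8% higher and 13.2% lower). The median difference there was -0.02, against -0.06 for all named genes, and the median absolute difference 0.64 against 0.28. Between SKN and Fibroblast only 3 were called (4.29%), SEMA6D and EFNB1 higher and EFNB2 lower in SKN. That share is close to the 4.55% of all named genes called (2.45% higher and 2.1% lower), with a median difference of -0.01, against -0.04. The median absolute difference was 0.34, against 0.17 for all named genes. The comparisons share arrays in pairs, so their calls are not independent. In bulk RNA a lower signal from fewer cells of a type and one from less RNA per cell cannot be told apart.

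**Figure D2:**
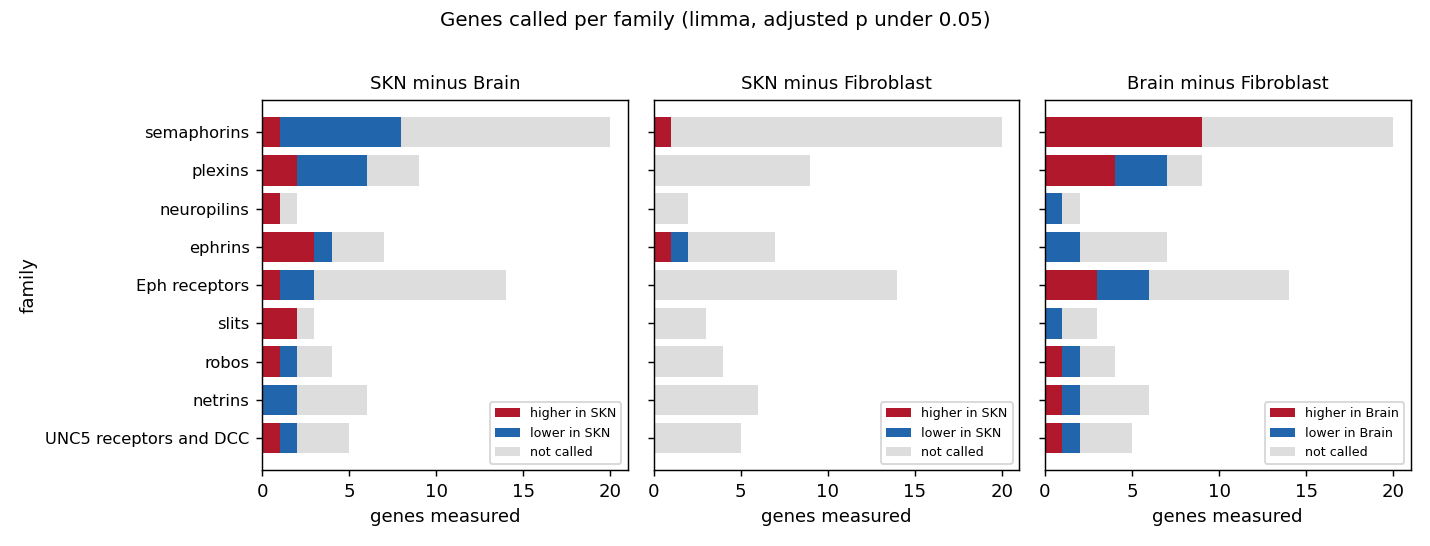
Number of genes per family called higher, called lower or not called in SKN minus Brain, SKN minus Fibroblast and Brain minus Fibroblast (limma, adjusted p under 0.05). Semaphorins account for 9 of the 19 genes higher in Brain than in Fibroblast, and the middle panel holds 3 calls in all.

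Of 20 semaphorins, the largest ligand family measured, 1 was higher, 7 were lower and 12 were not called in SKN against Brain (40% called, beside 22.6% of all named genes). Between Brain and Fibroblast, 9 were higher and 0 lower in Brain by limma, and 11 were not called (45% called, beside 27%). At an unadjusted p under 0.05, 11 were higher and 1 lower in Brain than in Fibroblast. SEMA3A, SEMA3B, SEMA6D and SEMA4C led. SEMA3A, the secreted repellent of sensory and sympathetic axons, read 4.97, 4.34 and 3.76 in SKN arrays 1 to 3, 10.13, 9.66 and 8.41 in Brain, and 5.60, 3.01 and 2.73 in Fibroblast. Every Brain array was above every other array, and Fibroblast 1 was the highest of the skin-derived arrays. The difference was -5.04 ± 0.77 (SE) for SKN minus Brain (adjusted p 0.00279) and 5.62 ± 0.77 for Brain minus Fibroblast (adjusted p 0.00152). SEMA3B, another secreted class 3 semaphorin, read 5.07, 4.71 and 4.74 in SKN, 9.09, 9.17 and 8.18 in Brain, and 4.75, 4.92 and 4.34 in Fibroblast. Brain again stood clear of both skin cultures, which overlapped. It differed by -3.98 ± 0.27 for SKN minus Brain (adjusted p 4.76e-05) and by 4.14 ± 0.27 for Brain minus Fibroblast (adjusted p 4.84e-05). SEMA3E, a ligand that binds PLXND1 without a neuropilin, was dim everywhere (4.01 or less) and differed by -0.98 ± 0.26 for SKN minus Brain and 0.87 ± 0.26 for Brain minus Fibroblast. Its calls were the least stable: leaving out any array but Brain 1 or Brain 3 ended the call between SKN and Brain (adjusted p up to 0.103). Leaving out any array but Brain 1 ended the call between Brain and Fibroblast (up to 0.123), where the difference was 0.55 without Brain 3.

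The remaining class 3 members behaved differently. SEMA3C was bright on every array, between 9.84 and 11.23, and was called in none of the comparisons. SEMA3D, which in zebrafish guides axons and crest cells, also had no call, with a wide spread inside cultures: 7.82 in SKN 1 against 10.19 and 9.83 in the other SKN arrays, and 6.00 in Brain 1 against 9.01 and 8.71 in the other Brain arrays. SEMA3F, the ligand preferred by NRP2, read 5.46 to 6.95 in SKN, 4.63 to 4.96 in Brain and 5.18 to 5.75 in Fibroblast, with no call (1.18 ± 0.37 for SKN minus Brain, adjusted p 0.0645). SEMA3G averaged 6.66 ± 0.18 (SD, n = 3) in SKN, 7.19 ± 1.06 in Brain and 5.03 ± 0.53 in Fibroblast. It was called between Brain and Fibroblast (2.16 ± 0.48 SE), a call that ended without Fibroblast 2 (adjusted p 0.0502) or Fibroblast 3 (0.0555).

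Class 4 semaphorins span the membrane and signal mostly through B-type plexins. SEMA4C, a ligand of PLXNB2, read 5.62, 5.46 and 5.55 in SKN, 7.61, 8.17 and 8.28 in Brain, and 5.51, 4.78 and 5.21 in Fibroblast. The Brain arrays lay above all others by close to 2 units or more. The differences were -2.48 ± 0.22 for SKN minus Brain (adjusted p 1.7e-04) and 2.85 ± 0.22 for Brain minus Fibroblast (1.06e-04). SEMA4B (-1.79 ± 0.15 for SKN minus Brain, 1.13 ± 0.15 for Brain minus Fibroblast) and SEMA4D, the ligand of PLXNB1 (-0.85 ± 0.15 and 0.77 ± 0.15), went the same way. SEMA4F was the only semaphorin called higher in SKN than in Brain (0.58 ± 0.13), and its call ended without Brain 3 (adjusted p 0.066) or SKN 3 (0.0712).

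Among the other membrane-bound semaphorins, SEMA6D set SKN apart from Fibroblast. SEMA6D, a transmembrane ligand of plexin A receptors, read 7.29, 6.88 and 6.08 in SKN, 8.33, 8.66 and 8.29 in Brain, and 4.82, 3.02 and 3.79 in Fibroblast. The 3 cultures did not overlap, with SKN between Brain and Fibroblast. The difference was 2.87 ± 0.45 for SKN minus Fibroblast (adjusted p 0.0129), 4.55 ± 0.45 for Brain minus Fibroblast (3.3e-04) and -1.67 ± 0.45 for SKN minus Brain (0.0369). Without Fibroblast 3 the call between SKN and Fibroblast ended (adjusted p 0.0567), and the call between SKN and Brain ended without Fibroblast 3, any Brain array, SKN 2 or SKN 3 (0.0587 to 0.123). SEMA7A, a lipid-anchored semaphorin that binds integrins and PLXNC1, averaged 7.11 ± 0.66 (SD, n = 3) in SKN, 7.14 ± 0.80 in Brain and 4.97 ± 0.55 in Fibroblast. It was called between Brain and Fibroblast (2.18 ± 0.47), and between SKN and Fibroblast it missed the threshold (2.15 ± 0.47, adjusted p 0.0504) although the arrays did not overlap. SEMA5A, SEMA5B, SEMA6A, SEMA6B, SEMA6C, SEMA4A and SEMA4G had no call.

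Plexins, the signalling receptors of semaphorins, split by member rather than moving together. Of 9 plexins, 2 were higher and 4 lower in SKN than in Brain, and 4 were higher and 3 lower in Brain than in Fibroblast. These are 66.7% and 77.8% of the plexins, beside 22.6% and 27% of all named genes. PLXNA2, a receptor for class 3 and class 6 semaphorins, read 5.32, 7.34 and 5.75 in SKN, 3.59, 3.49 and 3.56 in Brain, and 6.60, 5.78 and 6.64 in Fibroblast. Brain was low and tight, and the skin cultures overlapped. The difference was 2.59 ± 0.47 for SKN minus Brain (adjusted p 0.00685) and -2.79 ± 0.47 for Brain minus Fibroblast (0.00423). PLXNA1 went the same way on a smaller scale (1.01 ± 0.15 for SKN minus Brain and -0.73 ± 0.15 for Brain minus Fibroblast). PLXNA4, a receptor for SEMA3A in sensory and sympathetic neurons, went the other way and averaged 4.87 ± 0.44 (SD, n = 3) in SKN, 7.34 ± 0.32 in Brain and 5.99 ± 0.38 in Fibroblast (-2.47 ± 0.28 SE for SKN minus Brain and 1.35 ± 0.28 for Brain minus Fibroblast). PLXNA3 followed PLXNA4 (-0.92 ± 0.19 and 0.83 ± 0.19), and its call against Fibroblast ended without Fibroblast 3 (adjusted p 0.0592) or Brain 3 (0.0596).

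PLXNB3, known from oligodendrocytes, averaged 4.49 ± 0.21 (SD, n = 3) in SKN, 6.37 ± 0.11 in Brain and 5.04 ± 0.18 in Fibroblast, with differences of -1.88 ± 0.14 (SE) for SKN minus Brain and 1.33 ± 0.14 for Brain minus Fibroblast. PLXND1, the receptor of SEMA3E best known from vessels, averaged 7.0 ± 0.41 in SKN, 8.14 ± 0.25 in Brain and 6.15 ± 0.34 in Fibroblast (-1.14 ± 0.25 and 1.99 ± 0.25 in the same order of comparisons). The first of these PLXND1 calls ended without Brain 1 (adjusted p 0.0505) or Brain 3 (0.0503). PLXNB2 was lower in Brain than in Fibroblast (-0.75 ± 0.17), a call that ended without Brain 2 (0.0507) or Brain 3 (0.0525), while PLXNB1 and PLXNC1 were not called. PLXNC1 read 3.30, 5.82 and 4.38 in the 3 Fibroblast arrays, a spread of over 2 units.

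The neuropilins, which give class 3 semaphorins their binding site and also bind forms of VEGF, differed from each other. NRP1, the SEMA3A-binding neuropilin, averaged 8.60 ± 0.28 (SD, n = 3) in SKN, 6.72 ± 0.10 in Brain and 8.33 ± 0.10 in Fibroblast. It was higher in SKN than in Brain by 1.88 ± 0.15 (SE, adjusted p 9.04e-05) and lower in Brain than in Fibroblast (-1.61 ± 0.15, adjusted p 2.31e-04). SEMA3A and its neuropilin had opposite calls: in Brain, where SEMA3A was high, NRP1, PLXNA1 and PLXNA2 were low and PLXNA3 and PLXNA4 were high. NRP2 read 6.73, 8.57 and 8.63 in SKN, 7.89, 8.66 and 8.21 in Brain, and 9.21, 10.28 and 9.37 in Fibroblast. All 3 Fibroblast arrays were above the other 6, yet no comparison was called, and SKN 1 lay almost 2 units below the other SKN arrays (-1.64 ± 0.52 for SKN minus Fibroblast, adjusted p 0.146).

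**Figure D3:**
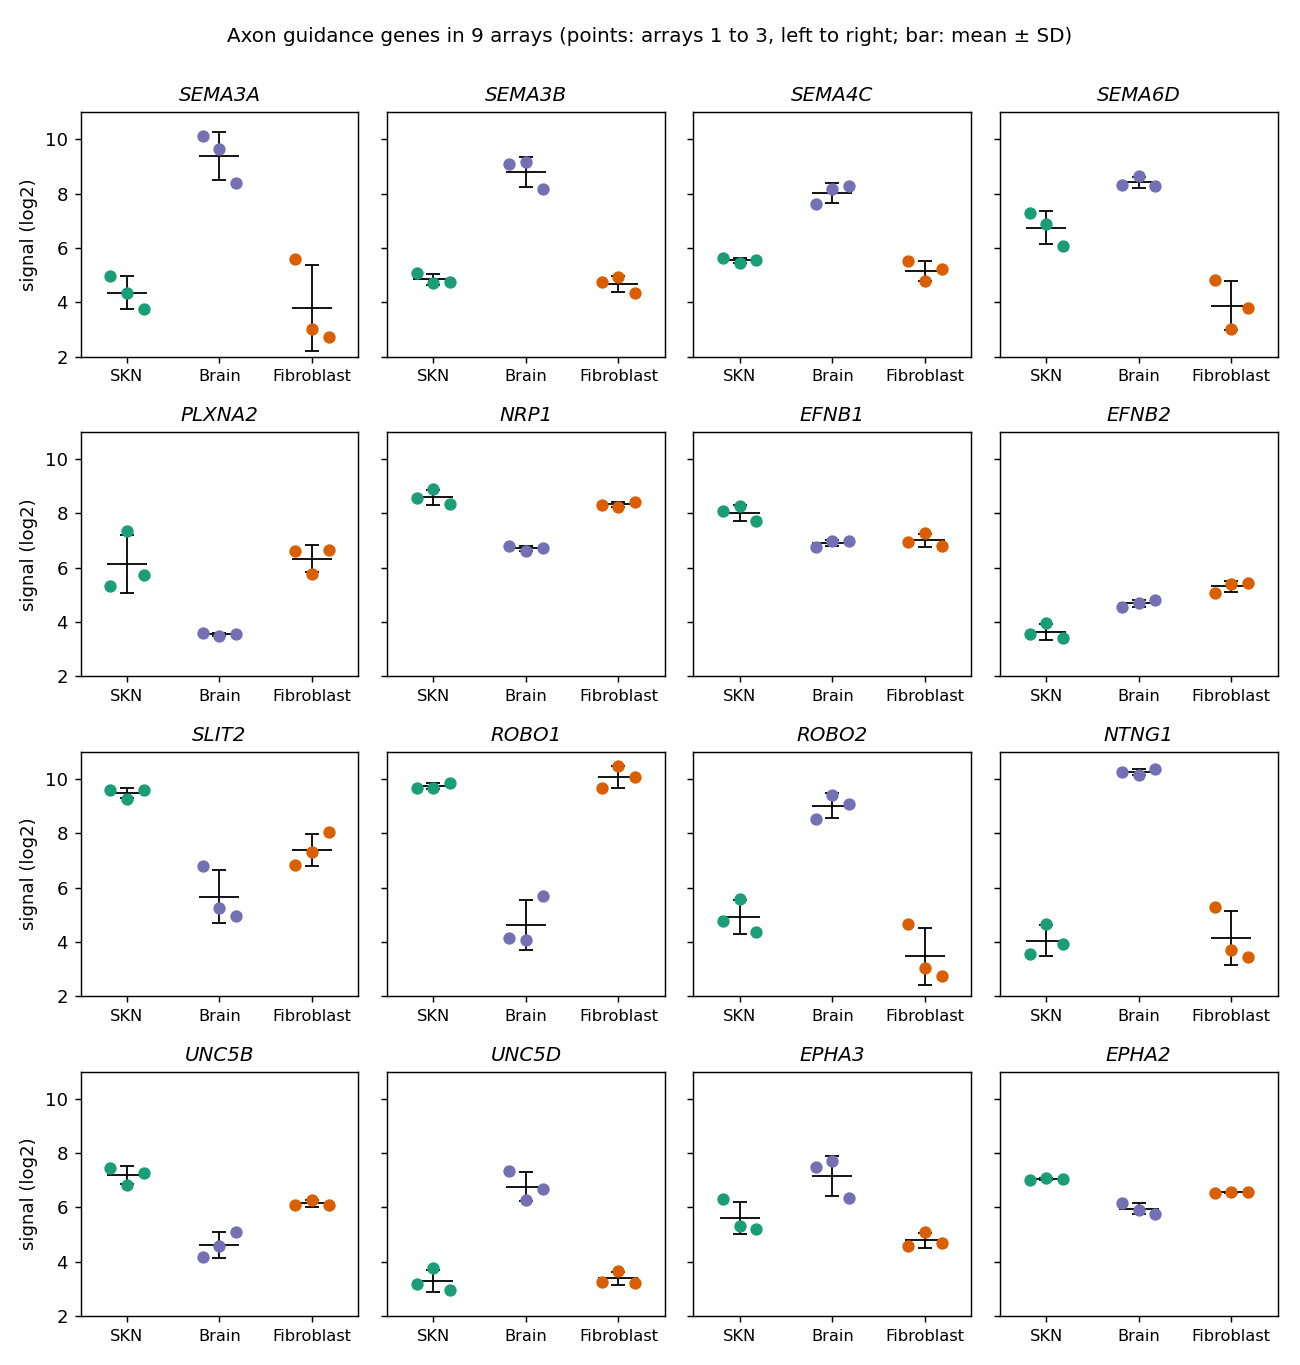
Log2 signal of 16 guidance genes on each array of SKN, Brain and Fibroblast (points, arrays 1 to 3 from left to right), with the mean and SD of 3 arrays as bars. ROBO1 and ROBO2 mirror each other between the Brain arrays and the skin-derived arrays, and EFNB2 is lowest in SKN (3.41 to 3.97).

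ROBO1 and ROBO2 had opposite calls. They are the main slit receptors of axons. ROBO1 read 9.68, 9.68 and 9.85 in SKN, 4.13, 4.08 and 5.69 in Brain, and 9.67, 10.46 and 10.08 in Fibroblast. Brain 3 was the highest Brain array and still lay about 4 units below the lowest skin-derived array. The difference was 5.10 ± 0.41 for SKN minus Brain (adjusted p 9.46e-05) and -5.44 ± 0.41 for Brain minus Fibroblast (8.83e-05). A further ROBO1 probe set gave 4.80 and -5.22. ROBO2 read 4.78, 5.58 and 4.38 in SKN, 8.52, 9.42 and 9.09 in Brain, and 4.67, 3.02 and 2.73 in Fibroblast. Here Brain was the high culture, and Fibroblast 1 fell inside the SKN range. ROBO2 differed by -4.09 ± 0.52 for SKN minus Brain (adjusted p 0.00114) and 5.53 ± 0.52 for Brain minus Fibroblast (2.58e-04). Between SKN and Fibroblast it was not called (1.44 ± 0.52), but it was without Fibroblast 1 (2.04, adjusted p 0.0407). ROBO3, a divergent receptor of crossing axons, and ROBO4, the endothelial member, had no call.

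Of the 3 slits, SLIT2 and SLIT3 were higher in SKN than in Brain and SLIT1 was not called (-0.06). That is 66.7% of a family of 3 genes, beside 22.6% of all named genes. SLIT2 read 9.59, 9.28 and 9.58 in SKN, 6.78, 5.26 and 4.96 in Brain, and 6.83, 7.30 and 8.03 in Fibroblast. SKN lay above all other arrays, and Fibroblast just above Brain. The difference was 3.82 ± 0.47 for SKN minus Brain (adjusted p 9.39e-04) and -1.72 ± 0.47 for Brain minus Fibroblast (0.0333). That last call ended without Fibroblast 2, Fibroblast 3, Brain 2, Brain 3 or SKN 3 (0.0526 to 0.105). Between SKN and Fibroblast SLIT2 missed the threshold (2.10 ± 0.47, adjusted p 0.0526). SLIT3 averaged 10.74 ± 0.18 (SD, n = 3) in SKN, 9.39 ± 0.24 in Brain and 9.94 ± 0.32 in Fibroblast. It was called between SKN and Brain (1.35 ± 0.19) and not between SKN and Fibroblast (0.80 ± 0.19, adjusted p 0.0664). SLIT1, the slit of brain neurons, read 3.81 or less on all arrays.

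The netrins differed in NTNG1 and, by a smaller amount, in NTN1 and NTNG2. NTNG1 encodes netrin-G1, a lipid-anchored relative of netrins that binds a synaptic adhesion partner and not DCC or UNC5. It read 3.55, 4.67 and 3.93 in SKN, 10.26, 10.16 and 10.35 in Brain, and 5.27, 3.71 and 3.43 in Fibroblast. The Brain arrays lay within 0.2 units of each other and more than 4 units above the rest, among which Fibroblast 1 was highest. NTNG1 had the largest difference of the 70 genes between SKN and Brain (-6.20 ± 0.46, adjusted p 7.18e-05) and between Brain and Fibroblast (6.12 ± 0.46, 9.37e-05). NTN1, the classical netrin, averaged 5.85 ± 0.11 (SD, n = 3) in SKN, 6.57 ± 0.34 in Brain and 6.22 ± 0.14 in Fibroblast. It was lower in SKN than in Brain (-0.72 ± 0.17), a call that ended without Brain 1, Brain 2 or any SKN array (adjusted p 0.0528 to 0.0727), and the other NTN1 probe set was not called (-0.93, 0.0635). NTNG2 was lower in Brain than in Fibroblast (-0.83 ± 0.23), a call that ended without Fibroblast 2 or 3 or any Brain array (0.0519 to 0.105). NTN4, a netrin of basement membranes that binds laminin, was bright on all arrays (8.82 to 9.92) and had no call, as had NTN3 and NTN5.

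Of the netrin receptors, UNC5B and UNC5D had opposite calls, as had ROBO1 and ROBO2. UNC5B, the netrin receptor best known from vessels, averaged 7.18 ± 0.33 (SD, n = 3) in SKN, 4.62 ± 0.47 in Brain and 6.14 ± 0.12 in Fibroblast. It was higher in SKN than in Brain (2.55 ± 0.25 SE, adjusted p 2.76e-04), lower in Brain than in Fibroblast (-1.52 ± 0.25, 0.00356) and not called between SKN and Fibroblast (1.03 ± 0.25, 0.0659). UNC5D read 3.16, 3.75 and 2.96 in SKN, 7.33, 6.26 and 6.69 in Brain, and 3.25, 3.67 and 3.23 in Fibroblast. The Brain arrays were above all others and the skin-derived cultures overlapped. The difference was -3.47 ± 0.30 for SKN minus Brain (adjusted p 1.4e-04) and 3.38 ± 0.30 for Brain minus Fibroblast (1.93e-04). UNC5A, UNC5C and DCC had no call. DCC, the attractive netrin receptor, read 2.40 to 2.84 on all arrays.

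Ephrins held 2 of the 3 calls between SKN and Fibroblast, with opposite signs in the B class. Members of that class span the membrane and can signal back into their own cell. Of 7 ephrins, 57.1% were called between SKN and Brain, 28.6% between SKN and Fibroblast and 28.6% between Brain and Fibroblast. The shares of all named genes were 22.6%, 4.55% and 27% in the same order. EFNB1 read 8.10, 8.28 and 7.71 in SKN, 6.77, 6.98 and 6.99 in Brain, and 6.94, 7.28 and 6.82 in Fibroblast. SKN lay above the other 6 arrays, which overlapped. The difference was 1.02 ± 0.18 for SKN minus Fibroblast (adjusted p 0.0205) and 1.12 ± 0.18 for SKN minus Brain (0.00357). The call against Fibroblast ended without Fibroblast 1, Fibroblast 3, SKN 1 or SKN 2 (0.0572 to 0.0783). EFNB2, a ligand that marks arterial endothelium and is also made by mesenchyme, read 3.56, 3.97 and 3.41 in SKN, 4.57, 4.70 and 4.82 in Brain, and 5.08, 5.42 and 5.44 in Fibroblast. The 3 cultures did not overlap, in the order SKN, Brain, Fibroblast from low to high. EFNB2 was lower in SKN than in Fibroblast (-1.67 ± 0.17, adjusted p 0.00196), and this call held through the removal of each single array. It was also lower in SKN than in Brain (-1.05 ± 0.17, 0.00384) and in Brain than in Fibroblast (-0.62 ± 0.17, 0.0346), the last call ending without Fibroblast 2 or 3 or any Brain array (0.0574 to 0.102). Among the A class, whose members are lipid-anchored, EFNA3 was lower in Brain than in both skin cultures (0.83 ± 0.18 for SKN minus Brain, -0.92 ± 0.18 for Brain minus Fibroblast). EFNA4 was higher in SKN than in Brain (0.80 ± 0.18, lost without Brain 1, Brain 3, SKN 2 or SKN 3, at adjusted p of 0.0536 to 0.0676). EFNA1, EFNA5 and EFNB3 had no call.

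Eph receptors, the kinases that bind ephrins, had 3 calls among 14 genes between SKN and Brain (1 higher and 2 lower in SKN). Between SKN and Fibroblast they had 0 by limma, where 4 had an unadjusted p under 0.05. Between Brain and Fibroblast 6 were called (3 higher and 3 lower in Brain). These are 21.4%, 0% and 42.9% of the family, beside 22.6%, 4.55% and 27% of all named genes. The share between SKN and Brain was thus close to that of all named genes. In the A class, EPHA3, EPHA4 and EPHA5 were higher in Brain than in Fibroblast. EPHA5, known from neurons, averaged 2.95 ± 0.13 (SD, n = 3) in SKN, 4.57 ± 0.60 in Brain and 2.53 ± 0.11 in Fibroblast (-1.62 ± 0.26 SE for SKN minus Brain, 2.05 ± 0.26 for Brain minus Fibroblast), and its other probe set gave -0.97 and 0.96. EPHA3 averaged 5.61 ± 0.60 in SKN, 7.17 ± 0.74 in Brain and 4.78 ± 0.28 in Fibroblast (-1.56 ± 0.40 and 2.39 ± 0.40). Its call between SKN and Brain ended without Fibroblast 3, Brain 1, Brain 2, SKN 2 or SKN 3 (adjusted p 0.0505 to 0.111). EPHA4, which binds ephrins of both classes, read 5.28, 4.90 and 5.72 in SKN, 5.71, 6.62 and 7.98 in Brain, and 4.81, 3.75 and 3.61 in Fibroblast. The Brain arrays were spread over more than 2 units and overlapped SKN at its top, and the call was between Brain and Fibroblast (2.71 ± 0.56). EPHA2, a receptor of epithelia and many cultured cells, went the other way with little spread: 7.04 ± 0.04 in SKN, 5.95 ± 0.20 in Brain and 6.55 ± 0.03 in Fibroblast (1.09 ± 0.12 for SKN minus Brain, -0.61 ± 0.12 for Brain minus Fibroblast).

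In the B class, EPHB2 (-0.89 ± 0.17) and EPHB3 (-1.74 ± 0.46) were lower in Brain than in Fibroblast. EPHB2 was dim, below the lowest array median on all arrays (4.60 or less). It averaged 3.93 ± 0.13 (SD, n = 3) in SKN, 3.43 ± 0.17 in Brain and 4.33 ± 0.32 in Fibroblast. EPHB3 read 5.23, 4.75 and 5.24 in SKN, 3.22, 4.89 and 5.29 in Brain, and 6.16, 6.33 and 6.13 in Fibroblast. Fibroblast was above all other arrays, and Brain 1 was well below the rest of its group. Without Brain 1 the EPHB3 difference was -1.11 (adjusted p 0.0085), and the call ended without any of the Fibroblast arrays (0.0705 to 0.087). EPHB1, EPHB4 and EPHB6 had no call, though a dimmer EPHB1 probe set was called higher in SKN than in Brain (0.86, adjusted p 0.00519, against 0.64 and 0.0543 for the one used). EPHA1, EPHA6, EPHA7, EPHA8 and EPHA10 had no call.

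**Figure D4:**
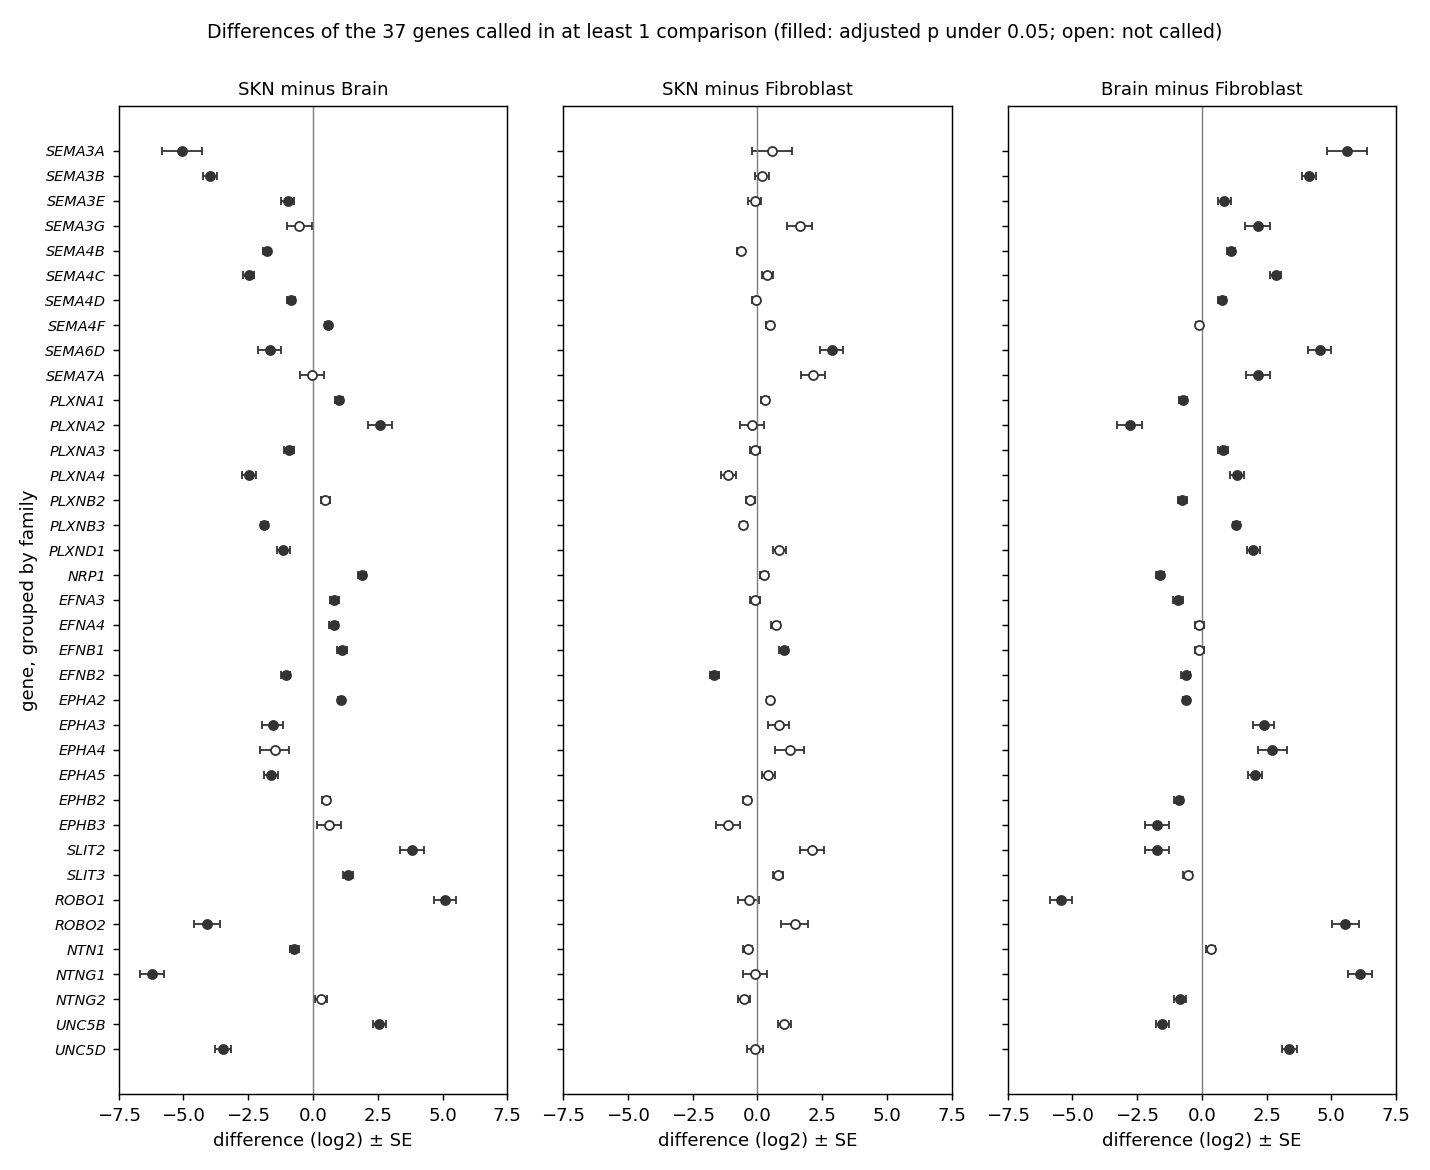
Log2 difference ± SE of the 37 genes called in at least 1 comparison, by family, for SKN minus Brain, SKN minus Fibroblast and Brain minus Fibroblast (filled points: called; open points: not called). Points of the outer panels reach beyond 5 units in either direction, while in the middle panel SEMA6D (2.87) is the farthest from 0.

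Between SKN and Fibroblast, 10 more genes differed at least 2-fold with no overlap of arrays and were not called. How many of all named genes meet these conditions together was not counted. Higher in signal in SKN were SEMA7A, SLIT2, UNC5B, SEMA3G (1.63 ± 0.48), SEMA5A (1.28 ± 0.48), EPHA4 (1.25 ± 0.56) and EFNA5 (1.14 ± 0.59), and lower in signal were NRP2, EPHB3 (-1.13 ± 0.46) and PLXNA4 (-1.12 ± 0.28). Groups that did not overlap were common, at 26 of the 70 guidance genes (17 with SKN above, 9 below). That was a larger share than the 26.7% of all named genes (11.7% above, 15% below), though not for SKN below. Between SKN and Brain the arrays did not overlap for 41 of the 70 guidance genes (20 with SKN above, 21 below). The share was again larger than the 40% of all named genes (20.2% above, 19.7% below). Between Brain and Fibroblast the arrays did not overlap for 40 of the 70 (20 with Brain above, 20 below). Here too the share exceeded the 44.3% of all named genes (20.8% above, 23.5% below).

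Other genes of guidance signalling were counted from 2 lists. Of 24 measured cues and receptors outside the families above, 6 were higher and 6 lower in SKN than in Brain, 3 higher and 2 lower in SKN than in Fibroblast, and 6 higher and 6 lower in Brain than in Fibroblast. These are 50%, 20.8% and 50% of the list, beside 22.6%, 4.55% and 27% of all named genes. The chemokine CXCL12, which guides migrating precursors and axons, read 11.29, 11.18 and 11.12 in SKN, 7.04, 9.14 and 10.17 in Brain, and 5.65, 5.23 and 4.11 in Fibroblast. It was higher in SKN than in Fibroblast (6.20 ± 0.72, adjusted p 0.0037) and in Brain than in Fibroblast (3.79 ± 0.72), and not called between SKN and Brain (2.41 ± 0.72, 0.054). FLRT2, a ligand of UNC5 receptors, averaged 8.58 in SKN, 4.27 in Brain and 6.50 in Fibroblast, and it was higher in SKN than in Brain (4.31 ± 0.20) and than in Fibroblast (2.08 ± 0.20). Its relatives FLRT1 (-3.40 ± 0.31) and FLRT3 (-1.40 ± 0.33) were lower in SKN than in Brain. The axonal adhesion molecules L1CAM, a partner of neuropilin in SEMA3A signalling, and NRCAM were lower in SKN than in Brain (-5.14 ± 0.34 and -3.30 ± 0.31). RGMA, the repulsive ligand of neogenin, was higher in SKN than in Brain (1.24 ± 0.23) and than in Fibroblast (1.12 ± 0.23). VEGFA, a ligand shared with neuropilins, was lower in SKN than in Fibroblast (-1.23 ± 0.25) and also in Brain than in Fibroblast (-1.21 ± 0.25).

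Among 62 measured transducers that act below the receptors, 11 were higher and 11 lower in SKN than in Brain, 2 higher and 4 lower in SKN than in Fibroblast, and 14 higher and 15 lower in Brain than in Fibroblast. These are 35.5%, 9.68% and 46.8% of the list, beside 22.6%, 4.55% and 27% of all named genes. The Rac activators TIAM1 (3.17 ± 0.45) and VAV3 (2.98 ± 0.48), which links Eph receptors to the cytoskeleton, were the genes called higher in SKN than in Fibroblast. Lower in SKN than in Fibroblast were DPYSL3 (-1.0 ± 0.14), of the collapsin response mediator family that acts in SEMA3A signalling, MICAL2, which oxidises actin (-1.37 ± 0.18), ENAH (-1.05 ± 0.17) and ABLIM1 (-1.77 ± 0.27), both of them actin regulators. In Brain against Fibroblast, DPYSL3 (-2.24 ± 0.14), MICAL2 (-2.55 ± 0.18) and ENAH (-0.86 ± 0.17) were lower too, whereas ABLIM1 was higher (1.25 ± 0.27). The kinase PAK3 was higher in SKN than in Brain (4.34 ± 0.39), and ADAM10, a protease that sheds ephrins, was lower (-1.29 ± 0.12). The slit-robo GTPase activators SRGAP1 and SRGAP2 differed in opposite directions between Brain and Fibroblast (-0.72 ± 0.15 and 0.81 ± 0.17).

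Fibroblast 1 and Brain 3 differed from the other arrays of their cultures in marker lists. Of the 19 guidance genes higher in Brain than in Fibroblast, 10 read highest in Fibroblast 1 among the Fibroblast arrays, as did 45% of all named genes called that way. The neural crest and Schwann cell list averaged 6.27 in Fibroblast 1, against 5.56 and 5.32 in Fibroblast 2 and 3. Of the 13 lower in Brain, 6 read highest in Brain 3 among the Brain arrays, as did 36.8% of named genes called that way. Brain 3 was the lowest Brain array for 6 of the 19 higher in Brain (28.4% of named genes), and Fibroblast 1 the lowest Fibroblast array for 9 of the 13 lower in Brain (36.4%). The fibroblast marker list averaged 6.17 in Brain 3, against 4.81 and 4.91 in Brain 1 and 2. The part of either marker list in the values of the guidance genes was not tested. Without both arrays, a choice made after seeing the data, 24 guidance genes were called between SKN and Brain, 3 between SKN and Fibroblast and 24 between Brain and Fibroblast. Brain minus Fibroblast was then 7.02 for SEMA3A, 6.64 for NTNG1, 6.09 for ROBO2 and -6.17 for ROBO1, each farther from 0 than with all arrays. Leaving out an array that reads nearest to the other culture widens a difference by construction. Of the 32 genes called between Brain and Fibroblast, 18 were farther from 0 without both arrays and 14 nearer, such as SEMA3G (1.90), EPHA4 (2.49), SEMA3E (0.59) and UNC5D (3.34). Most neural crest and Schwann cell markers and most fibroblast markers also differed in the Brain contrasts. In SKN against Brain, 10 of 12 crest markers were lower and 1 (SNAI2) higher, and 13 of 14 fibroblast markers were higher. In Brain against Fibroblast, 10 crest markers were higher and 1 lower, and 12 fibroblast markers were lower and 1 (FBLN1) higher. Of all named genes, 11.7% were lower and 10.9% higher in SKN than in Brain. Between Brain and Fibroblast, 13.8% were higher and 13.2% lower in Brain. The part of these markers in the guidance differences was not tested either.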

How the data were processed

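The authors deposited 1 table of 32205 probe sets by 9 arrays, used here as log2 signals without change. Per the submitters' processing notes, MAS5, RMA and Partek were used, with no role, order or version. The log2 base is inferred from the range (0.561 to 13.47) and is not stated in the file. Gene symbols came from the platform's table: 16545 probe sets carry 1 symbol, 370 several (not used for names) and 15290 none. Of the 70 genes, 5 have several probe sets, and 67 matched the dog reference table UU_Cfam_GSD_1.0 by identifier and 3 by symbol. No coordinates were used, and EFNA2 was not analysed here.

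limma 3.58.1 in R 4.3.3 fitted 1 coefficient per culture to all 9 arrays (6 residual and 2.41 prior degrees of freedom, no filter on level). Each comparison's 2-sided p-values received a Benjamini-Hochberg adjustment across the whole table, and the fit was tested on simulated data. Genes called in at least 1 comparison are named with values, and up to 8 leading genes per comparison are given by array. EPHA4, EPHB3, NRP2 and the genes without calls were added for their spread. The genes, lists and tests were chosen with earlier results of these data known. The number of arrays limits the precision.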

Additional observations from a re-analysis of the deposited data

How the results depend on the processing

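Alternatives changed the variance moderation, the arrays in the fit, array weights, normalization, the filter on level, a replicate block and the probe set per gene. Calls of guidance genes between SKN and Brain numbered 30, with 24 to 34 over the alternatives (25 to 30 on leaving out 1 array), and between Brain and Fibroblast 32, with 24 to 33 (25 to 32). No called gene changed sign under any of them. The 3 calls between SKN and Fibroblast are a less settled count: 1 without variance moderation, 5 with a mean-variance trend, 10 with array weights, 6 without the lowest 25% of probe sets, 10 with the probe sets of a gene averaged and p adjusted over named genes alone, and 1 to 8 on leaving out 1 array (1 without Fibroblast 3, 8 without Brain 1, 5 without Brain 3). SLIT2 and SEMA7A were among the genes gained with the trend (adjusted p 0.0493 and 0.0475) and with array weights (0.0217 and 0.029). Over all probe sets, 1076 calls between SKN and Fibroblast became 488 without moderation and 513 to 1095 on leaving out 1 array (670 without Fibroblast 2, 513 without Fibroblast 3, 593 without SKN 1, 624 without SKN 3). With Fibroblast 1 and Brain 3 both left out (a setting added once the data had been seen), all calls numbered 3366 between SKN and Brain (5271 with all arrays), 516 between SKN and Fibroblast and 3657 between Brain and Fibroblast (6638). With the replicate number as a block, guidance genes called numbered 29, 4 and 32 for SKN minus Brain, SKN minus Fibroblast and Brain minus Fibroblast. Of 9 same-numbered pairs of arrays, 1 had deviations from the group means that correlated above 0.1 (Fibroblast 1 and SKN 1, at 0.145). Whether same-numbered arrays share a dog or a batch is not given, and these correlations cannot settle it. In the same order of comparisons, 23 of 30, 1 of 3 and 24 of 32 genes stayed called whichever single array was left out. Signals near the bottom of the range limit what a difference can show, since the table holds no detection calls.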
